A study of Mus musculus with 65 samples.

Results

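The numbered zinc finger genes of the mouse (symbols Zfp with digits and at most 1 letter, without Zfp36, Zfp42 and Zfp57) were followed at their promoters while chromatin was rebuilt behind the replication fork. Members were the transcription start site (TSS) regions whose midpoint lay within 1000 bp of the start of such a protein-coding gene. This gave 323 of 31995 TSS regions, at 298 of the 391 genes of that name in the RefSeq table, and 93 genes had no region within reach. Zfp827 was the farthest member, at 951 bp, and Zfp451 the nearest gene left out, at 1007 bp. Counts of called regions are over the 323 regions, and gene names and groupings use 1 region per gene, the nearest to the gene start. Some neighbouring genes share their nearest region, so the 298 genes stand for 295 distinct regions.

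Most numbered Zfp genes code for proteins with a row of zinc fingers that read a DNA sequence. Many also carry a KRAB domain, which recruits the corepressor Trim28 and through it the histone methyltransferase Setdb1 and heterochromatin proteins, and such factors are best known in embryonic stem cells for silencing retroelements and marking imprinted loci. The family grew by repeated local duplication, so its genes often stand in runs of near relatives. A minority of numbered genes code for transcription factors of stem cells or of most cells, or have roles away from DNA.

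All cells were E14TG2a mouse embryonic stem cells (129/Ola strain, passages 5 to 28), kept on gelatin in 15% serum with LIF. For repli-ATAC-seq they received 20 uM EdU for 10 min, and chromatin was taken at once (nascent) or after a chase in 10 uM thymidine for 30 min, 1 h or 2 h. Tn5 transposase cut accessible chromatin, labelled fragments were bound to streptavidin beads (EdU fraction), and the supernatant was kept (unbound fraction). In the inhibitor experiment, cells had been kept for 2 h before EdU in DMSO (the solvent control), DRB (an inhibitor of CDK9, needed for elongation by RNA polymerase II) or triptolide (which blocks the XPB helicase of TFIIH and so initiation), with 3 libraries for each drug, time and fraction. The sources used here do not give the doses, nor say if a drug was present in the chase. In bulk chromatin, fewer labelled cells with an open promoter and less cutting per promoter cannot be told apart. The nascent and 2 h spike-in groups (2 libraries each) carried 100 EdU-labelled Drosophila S2 cells. Untreated steady-state cells (3 samples) and RNA polymerase II phosphorylated on serine 5 (S5P, 2 samples with 2.5% S2 chromatin) entered as peak lists.

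The EdU libraries held 1.30 to 5.55 M reads and the unbound libraries 2.35 to 14.4 M reads, so that 1 read in a 1 kb window was worth 0.180 to 0.770 RPM (reads scaled to the library total) in EdU data. Nothing says that libraries came from separate cultures, so p-values measure only the spread between these libraries. The stem cell genes Pou5f1, Sox2, Nanog, Klf4, Tdgf1 and Dppa5a had a promoter peak in every accessibility list, Esrrb had none at the region used, and several genes of other lineages such as Thy1 also had one. An open promoter is not evidence of expression.

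Promoter sequences show what the family shares and which members are copies of each other. Of the 298 genes, 242 matched a RefSeq promoter (GRCm38.p6, 250 bases before to 50 after the start). The first 3 below belong to promoters that lost most signal to triptolide in nascent chromatin, the next 2 to promoters among the 3 that gained most by 2 h in DMSO, and the last 2 to near-identical copies without a single read. Each is 5′ to 3′ on the strand of its gene, with CG dinucleotides in capitals. On GRCm38.p6 the windows are chr7:110061452-110061751 (plus strand) for Zfp143, chr13:23369159-23369458 (minus strand) for Zfp322a, chr8:69625499-69625798 (minus strand) for Zfp868, chr7:41633281-41633580 (plus strand) for Zfp788, chr7:6172263-6172562 (plus strand) for Zfp444, chr2:175372186-175372485 (plus strand) for Zfp968 and chr2:176670272-176670571 (plus strand) for Zfp973; each spans an annotated start of its gene.
Zfp143: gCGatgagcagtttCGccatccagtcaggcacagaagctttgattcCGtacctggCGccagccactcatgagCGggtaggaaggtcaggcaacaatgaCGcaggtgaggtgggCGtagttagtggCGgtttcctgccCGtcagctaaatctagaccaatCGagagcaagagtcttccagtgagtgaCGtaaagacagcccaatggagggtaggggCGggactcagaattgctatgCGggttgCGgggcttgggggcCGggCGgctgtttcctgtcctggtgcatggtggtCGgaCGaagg
Zfp322a: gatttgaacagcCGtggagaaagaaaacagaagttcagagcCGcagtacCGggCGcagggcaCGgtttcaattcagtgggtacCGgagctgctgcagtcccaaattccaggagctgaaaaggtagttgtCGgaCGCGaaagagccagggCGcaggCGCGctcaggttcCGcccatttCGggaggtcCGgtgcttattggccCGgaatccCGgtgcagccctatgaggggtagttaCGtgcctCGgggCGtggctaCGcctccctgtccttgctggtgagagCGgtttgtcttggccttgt
Zfp868: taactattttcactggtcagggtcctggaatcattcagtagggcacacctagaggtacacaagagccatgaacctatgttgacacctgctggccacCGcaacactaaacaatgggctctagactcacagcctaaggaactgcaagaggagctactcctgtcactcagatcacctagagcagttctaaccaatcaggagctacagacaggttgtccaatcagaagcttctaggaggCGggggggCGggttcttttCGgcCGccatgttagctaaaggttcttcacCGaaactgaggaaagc
Zfp788: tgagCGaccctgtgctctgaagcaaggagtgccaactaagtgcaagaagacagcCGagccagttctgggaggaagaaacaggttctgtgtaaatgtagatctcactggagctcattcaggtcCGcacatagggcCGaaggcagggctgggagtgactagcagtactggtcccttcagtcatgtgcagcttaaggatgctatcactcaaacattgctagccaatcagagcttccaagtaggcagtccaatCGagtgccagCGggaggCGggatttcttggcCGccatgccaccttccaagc
Zfp444: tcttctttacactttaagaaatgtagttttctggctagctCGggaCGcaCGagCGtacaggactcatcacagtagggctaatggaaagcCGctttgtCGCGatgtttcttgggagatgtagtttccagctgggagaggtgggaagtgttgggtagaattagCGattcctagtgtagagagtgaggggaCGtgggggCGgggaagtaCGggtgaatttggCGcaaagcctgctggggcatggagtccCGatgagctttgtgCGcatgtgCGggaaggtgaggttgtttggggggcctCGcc
Zfp968: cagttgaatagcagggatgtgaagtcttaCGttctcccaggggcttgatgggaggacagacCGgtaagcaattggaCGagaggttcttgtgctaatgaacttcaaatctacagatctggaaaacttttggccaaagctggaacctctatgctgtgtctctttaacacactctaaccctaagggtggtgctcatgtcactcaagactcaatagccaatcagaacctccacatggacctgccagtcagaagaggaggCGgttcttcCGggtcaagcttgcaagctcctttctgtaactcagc
Zfp973: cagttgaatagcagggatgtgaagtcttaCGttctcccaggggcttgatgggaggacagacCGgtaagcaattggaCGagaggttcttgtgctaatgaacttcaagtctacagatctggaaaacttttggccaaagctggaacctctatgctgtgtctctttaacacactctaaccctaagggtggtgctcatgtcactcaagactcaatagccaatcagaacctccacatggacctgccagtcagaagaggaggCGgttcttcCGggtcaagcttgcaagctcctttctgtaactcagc

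The copies Zfp968 and Zfp973 are the same at 299 of 300 positions, and Zfp955a and Zfp955b at all 300. The member promoters held a median of 14 CG dinucleotides, against 7 over the 32851 promoters of the table, and a median GC content of 54.3% against 52.7%. CG numbers varied widely among the printed members, from 22 at Zfp322a and 18 at Zfp143 to 8 at Zfp788, 6 at Zfp868 and 5 at each of Zfp968 and Zfp973.

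Short motifs were searched on both strands. The ETS core CCGGAA stood in 85 of 242 members (35.1%, against 14.9% of all promoters), the CCAAT box in 120 (49.6% against 37.4%), and the GC box GGGCGG in 114 (47.1% against 35.7%). The TATA box TATAAA was rarer, in 13 members (5.37% against 13.6%). The other cores stood in few promoters: NRF1 GCATGCG 7.44% against 3.58%, YY1 AAGATGG 8.26% against 6.34%, CRE TGACGTC 4.55% against 3.21% and ZBTB33 CTCGCGA 3.31% against 1.93%. No searched motif contains another. These are letter matches, and the member promoters include copies of each other.

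The peak lists of the time series asked when after replication each promoter was open again. Most Zfp promoters were already open in nascent chromatin and most of the others had a peak by the 2 h list. A peak lay within 1000 bp of 198 of 323 member regions in the nascent list (61.3%, Wilson 95% interval 55.9% to 66.4%, against 36.1% of all TSS regions). By 30 min 252 regions had one (background 42.8%), by 1 h 261 (45.9%) and by 2 h 280 (50.8%), and the steady-state list reached 294 (91.0%, background 56.9%). Regions at protein-coding starts are the nearer comparison, of which 49.8% had a nascent and 73.2% a steady-state peak. Among coding starts that had a steady-state peak, 67.5% were in the nascent list, and among member genes with one, 65.3%. The lists combine replicates, are of unknown depth and grew with time over the genome, and no test between them is possible.

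By gene, 177 of 298 had a peak already in the nascent list, 59 gained theirs by 30 min, 12 by 1 h, 13 by 2 h and 11 only at steady state, and 26 had a peak in no list. In this order the shares were 59.4%, 19.8%, 4.03%, 4.36%, 3.69% and 8.72%. Over regions at protein-coding starts they were 49.8%, 11.6%, 4.97%, 3.78%, 3.78% and 26.1%, so that those for 1 h, 2 h and steady state were near the members' shares. Peaks once gained were mostly kept: 168 genes had a peak in all 5 accessibility lists and 52 in all but the nascent one. Interrupted patterns were few. Zfp276, Zfp677, Zfp953, Zfp974 and Zfp981 had a nascent peak and missed 30 min, and Zfp523, Zfp661 and Zfp69 missed 1 h. Zfp296, a cofactor of stem cell reprogramming, missed 2 h. Zfp334, Zfp354b, Zfp422, Zfp467 and Zfp971 appeared at 30 min, were missing at 1 h and returned, and Zfp316, Zfp385c, Zfp600 and Zfp612 each had a pattern of their own.

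**Figure D1:**
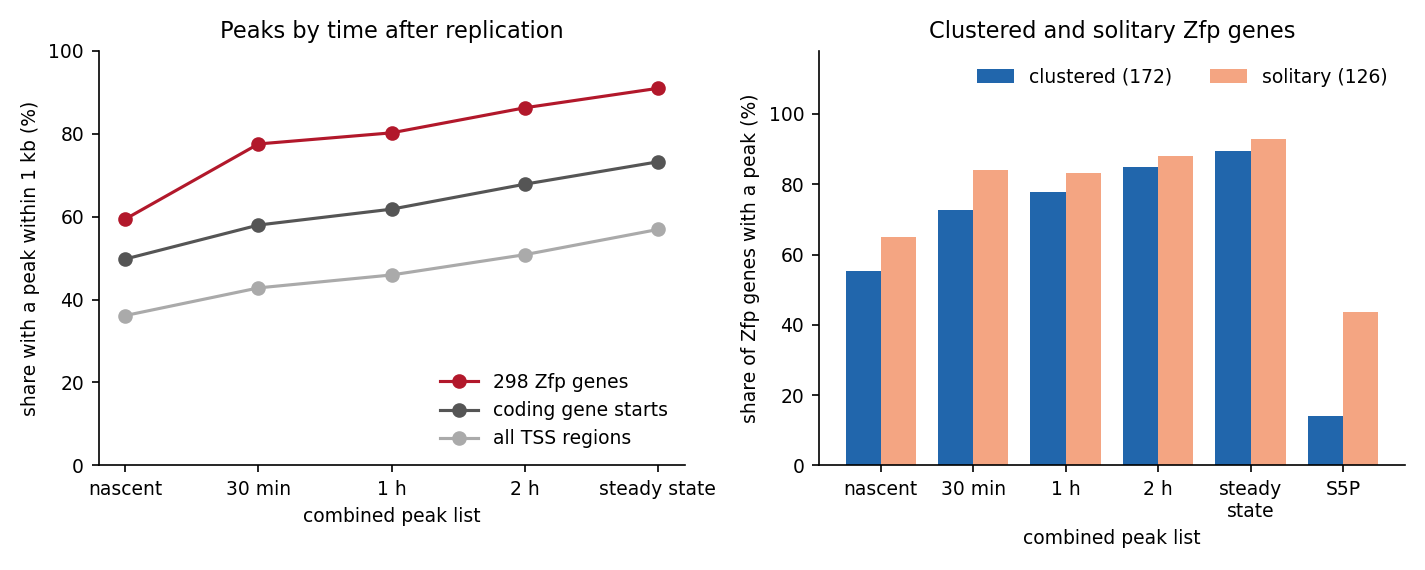
Left, share of promoters with a peak within 1 kb in each combined list (y axis, percent) for the 298 Zfp genes, coding gene starts and all TSS regions. Right, the same share for clustered and solitary Zfp genes, with the S5P list added. The Zfp line starts at 59.4% and ends at 90.9%, above both other lines, and the S5P bars differ most between clustered and solitary genes (14.0% and 43.7%).

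Nascent peaks were spread unevenly over the function lists. The list of transcription factors of stem cells or most cells is called general factors below, and it includes pluripotency regulators. All 14 members listed as transcription factors of stem cells or most cells had a nascent peak, among them Zfp143, an activator of small nuclear RNA and many coding genes, and Zfp281, a regulator of pluripotency. So did all 11 numbered proteins with roles other than DNA binding, such as Zfp598, the ubiquitin ligase that marks collided ribosomes, and Zfp207, a spindle protein. Of the 11 developmental or tissue-restricted members only 2 had one (Zfp385a and Zfp703), while 9 had a peak at 30 min. Of the 6 KRAB factors known to act on retroelements or imprints, Zfp809, Zfp568, Zfp932 and Zfp819 were open from the nascent list on, and Zfp708 and Zfp429 had a peak in none. Over all TSS regions 36.1% had a nascent and 42.8% a 30 min peak, and over coding starts 49.8% and 58.0%. The function lists are small and were not tested.

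S5P, the mark of initiating polymerase, lay at 88 of 323 member regions (27.2%, background 18.5%; 26.3% of coding starts). It was spread unevenly over the family. Of 172 clustered genes, defined by another member start within 200 kb, 24 had an S5P peak, and of 126 solitary genes 55 had one. Steady-state peaks lay at 154 of 172 and 117 of 126. The clustered promoters also held fewer CG dinucleotides (median 11 against 18). The ZBTB33 core stood in 0 of 143 clustered and 8 of 99 solitary promoters, which allows a share of up to 2.10% in the clustered ones. In the function lists S5P lay at 10 of 14 general factors, 10 of 11 proteins with other roles, 2 of 11 developmental genes and 2 of 6 retroelement or imprint factors. Where the S5P peak had to cover the region midpoint, 55 member regions had one in place of 88.

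Of the 7 runs of at least 6 neighbours, 2 had a nascent peak at every gene and none lacked nascent peaks altogether. The run of 16 genes on chromosome 13 (chr13:67061170-67813816, mm10, from Zfp712 to Zfp273) had a nascent peak at 6, a steady-state peak at 13 and S5P at none. The run of 12 on chromosome 7 (chr7:29768552-30169775, from Zfp84 to Zfp146, Zfp568 included) had nascent peaks at 10, steady-state peaks at all 12 and S5P at 2. A run of 6 elsewhere on chromosome 7 (chr7:4915181-5038519), which holds Zfp628, Zfp579, Zfp524, Zfp865, Zfp784 and Zfp580, had a nascent peak at all 6, as did the run of 6 on chromosome 6 (chr6:47835633-48086986, from Zfp398 to Zfp746). Both had S5P at 2. Zfp784 and Zfp580 share a region, as do Zfp398 and Zfp786, so each such pair counts the same peaks. Fewer nascent peaks stood in the run of 9 on chromosome 17 (chr17:32788287-33394637, from Zfp871 to Zfp101), at 3, with a steady-state peak at 7 and S5P at none. The genes of this run without a steady-state peak were Zfp955a and Zfp955b. Their promoter windows are identical, they had no read in any inhibitor library, and their level is uncertain. The other runs of 6 had fewer nascent peaks. Like the 2 runs of 6 above, they had a steady-state peak at every gene. The run on chromosome 11 (chr11:50827731-51059225, from Zfp354c to Zfp354a) had a nascent peak at 1 and S5P at none. That from Zfp553 to Zfp629 on chromosome 7 (chr7:127233061-127615785) had a nascent peak at 2 and S5P at 2. The runs and their limits were chosen after values had been seen.

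Of the 26 genes without any peak, 8 had no read in any of the 36 inhibitor libraries: Zfp955a, Zfp955b, Zfp965, Zfp966, Zfp967, Zfp968, Zfp97 and Zfp973. Over the 53.4 M EdU reads, a count of 0 allows up to 0.0562 RPM in a window (3 reads, counting error only), and over the 159 M unbound reads up to 0.0189 RPM. In all 8 the promoter letters stood elsewhere too: 95.6% to 100% of their 30-base words were found in the promoter of another gene that did not overlap them. Zfp968 shared its words with 31 genes, mainly other zinc finger genes and gene models of chromosome 2, and Zfp97 with 4. Over all members with a promoter sequence, at least 50% of the words were shared in 14 of 20 genes without a peak, in 6 of 76 with a first peak after the nascent list and in 3 of 146 with a nascent peak. The sources used here do not say how reads that map to several places were treated, and the part of repeated sequence in these zeros was not tested. The level of such a gene is uncertain. Among genes with a promoter sequence, Zfp345, Zfp442 and Zfp937 are the 3 with a nascent peak to which this also applies. Genes without a promoter sequence, Zfp960 among them, were not checked for shared words. The word length and the 50% limit were chosen after the genes at 0 had been seen.

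**Figure D2:**
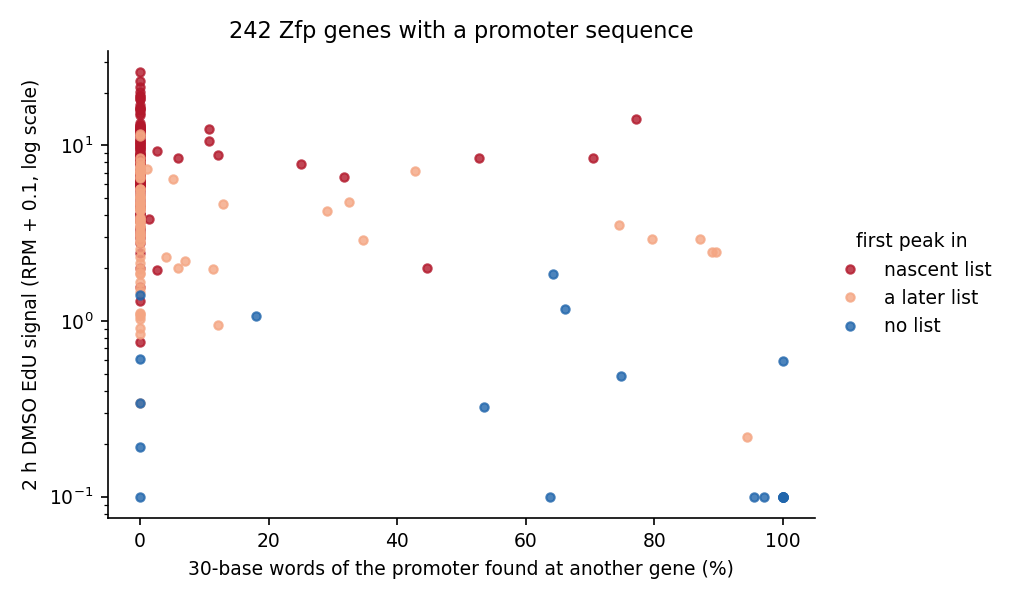
Share of 30-base promoter words found at another gene (x axis, percent) against mean EdU signal at 2 h in DMSO (y axis, RPM + 0.1, log scale) for 242 Zfp genes, coloured by the list with the first peak. Genes without a peak lie low, and the genes at 0 in these 3 libraries, the 8 at 0 in every library among them, lie on the bottom line.

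Among the remaining promoters without a peak, Zfp366, a factor of dendritic cells, had nascent DMSO values of 0.577, 0 and 0.265 RPM, and Zfp708 had 0, 0.505 and 0.529 RPM. Its unbound DMSO libraries at the nascent time gave 0.149, 0 and 0.164 RPM. No promoter sequence was matched for Zfp366.

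The inhibitor table gave the size of the signal. In DMSO, the mean over the 298 genes was 2.23 ± 0.108 RPM in nascent chromatin and 6.24 ± 0.401 RPM at 2 h (means over libraries, SD, n = 3). The highest nascent levels belonged to Zfp219 (7.70 ± 1.00 RPM), Zfp143 (7.33 ± 1.88), Zfp960 (7.31 ± 0.879), Zfp13 (6.44 ± 0.439), Zfp710 (6.14 ± 1.03) and Zfp868 (6.03 ± 0.738; mean ± SD, n = 3). In the unbound fraction, which is mostly DNA not replicated during the pulse, the mean was 7.18 ± 0.130 RPM at the nascent and 6.71 ± 0.332 RPM at the 2 h time. Every window of the genome is scaled to the same total, and windows away from peaks went the other way, from 0.305 to 0.307 RPM in nascent to 0.182 to 0.209 RPM at 2 h in the DMSO EdU libraries.

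**Figure D3:**
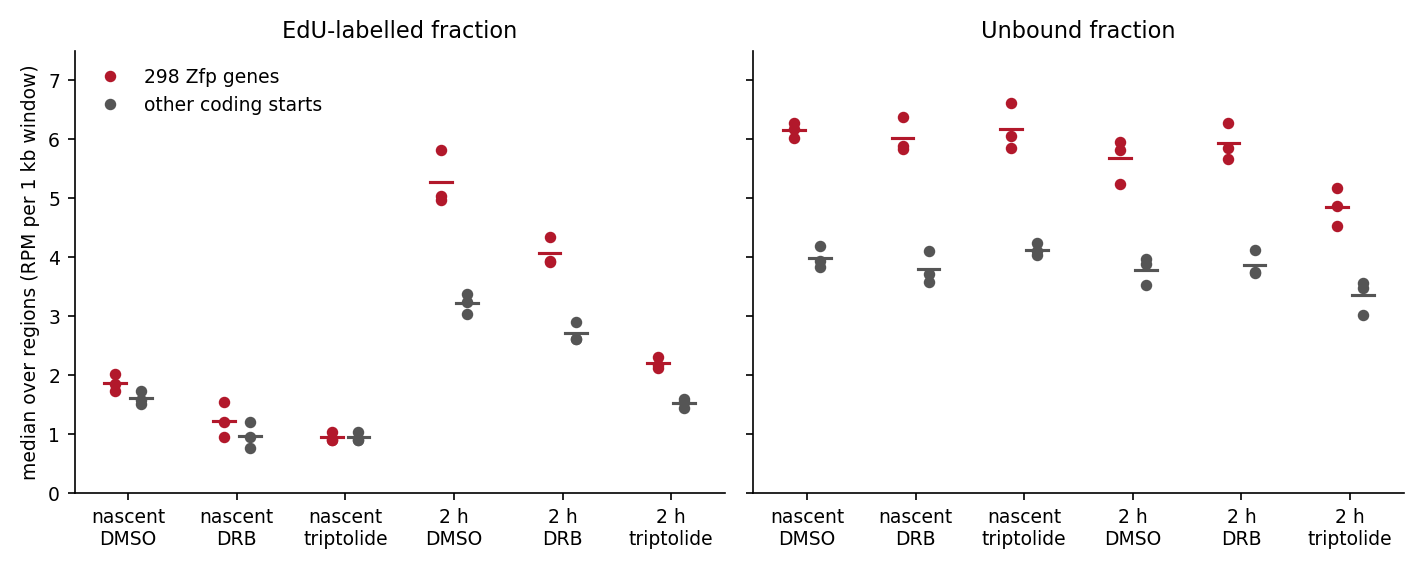
Median RPM per 1 kb window over the 298 Zfp genes (red) and over all other coding gene starts (grey) in each library (points; lines are means of 3 libraries), for the EdU-labelled and the unbound fraction. In the EdU fraction the Zfp medians of 2 h DMSO lie at 4.98 to 5.82 RPM and those of 2 h triptolide at 2.13 to 2.30, and the unbound medians stay between 4.54 and 6.61.

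Signal rose at most member regions over 2 h of maturation. Of 311 member regions that passed the filter on low values, 199 rose from nascent to 2 h in DMSO and 0 fell (limma on log2(RPM + 1), adjusted p under 0.05; background 31.2% higher and 1.64% lower). The median difference over the genes tested was 1.06, against 0.34 over all TSS regions. Coding starts with a steady-state peak are the closest comparison: 7859 of 14002 rose, with a median of 0.93, against 181 of 271 members with such a peak and a median of 1.08. Centring each library on its median region left 116 higher and 1 lower, and limma-voom on recovered reads with TMM scaling 47 higher and 4 lower. The median over all TSS regions was -0.08 after centring and -0.37 with limma-voom.

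Zfp788 gained most. Its nascent DMSO libraries gave 1.15, 4.04 and 4.23 RPM and its 2 h libraries 25.7, 24.8 and 27.7 RPM. The groups stood far apart, with a log2 difference of 2.81, SE 0.29, adjusted p = 1.5e-14 (limma). Zfp960 went from 7.5, 8.08 and 6.35 to 50.9, 42.8 and 31.3 RPM, a difference of 2.34, SE 0.27, adjusted p = 2.1e-12. Zfp444 went from 2.88, 3.03 and 4.23 to 22.1, 20.9 and 16.9 RPM (2.26, SE 0.29, adjusted p = 1.4e-10). None of these groups overlapped. Zfp760, Zfp866 and Zfp345 followed, with log2 differences of 2.26, 2.21 and 2.2. All 6 remained called under every alternative run. Zfp960 had no matched promoter, so its shared words were not counted. At Zfp345 77.1% of the words were shared, and its level is uncertain here and in the comparisons below.

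General factors differed in their gain, and some were not called. Zfp219 had the highest nascent level, 8.07, 6.56 and 8.46 RPM, and gave 12.6, 5.04 and 12.4 RPM at 2 h, so that the groups overlapped (0.25, SE 0.29, adjusted p = 0.56). Zfp335 had a log2 difference of -0.018, SE 0.31, adjusted p = 0.99. In the list of general factors 7 of 14 rose (median 0.81, background 31.2% higher), including Zfp384 (1.62) and Zfp281 (1.25). Of the proteins with other roles 5 of 11 rose (median 0.57), led by Zfp622, a ribosome assembly factor (1.86), and Zfp91, a ubiquitin ligase (1.82).

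Of the 6 factors that act on retroelements or imprints, 4 rose and 0 fell (median 0.89). Zfp932, which represses endogenous retroviruses, went from 1.15, 1.51 and 1.59 to 8.89, 8.27 and 9.13 RPM (2.02, SE 0.32, adjusted p = 1.5e-07). Zfp809, which silences murine leukaemia virus, went from 2.88, 3.53 and 3.97 to 13.2, 12.2 and 10.5 RPM (1.54, SE 0.30, adjusted p = 1.6e-05). The groups did not overlap at either gene. Zfp568, a repressor of placental Igf2, rose by 1.02, and Zfp819 had 0.42 (adjusted p = 0.43). Zfp429, without a peak, also passed the test (0.75) at levels of 0, 0 and 0.529 RPM against 0.920, 1.44 and 0.553 RPM, which are a few reads. Of the developmental genes 7 of 11 rose, among them Zfp503 (1.75), Zfp703 (1.62) and Zfp521 (1.24). Among the partners of KRAB factors, which are no members, 13 of 19 rose and 0 fell. The shares of retroelement or imprint factors, developmental genes and partners lay near that of all member regions given above. The background was 31.2% higher, and the lists were not tested.

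With DRB, 216 member regions rose and 1 fell (background 35.1% and 1.97%). Zfp960, Zfp40, Zfp273, Zfp345, Zfp13 and Zfp760 led with log2 differences of 2.63, 2.48, 2.44, 2.42, 2.38 and 2.2. The 1 that fell was Zfp429, from 0.473, 1.54 and 0.302 RPM to 0 in all 3 libraries. These are a few reads, and the call in DMSO was in the opposite direction. With triptolide, 91 rose and 0 fell (background 14.1% and 0.389%). Zfp960 led again (2.10), followed by Zfp184 (1.84), Zfp322a (1.80), Zfp953 (1.77), Zfp763 (1.73) and Zfp606 (1.71). Scaling libraries to windows away from peaks gave 173 higher with triptolide and centring 29, and limma-voom gave 31 higher and 7 lower with DRB and 14 higher and 2 lower with triptolide. Without 2 h triptolide replicate 1 or 3 the triptolide count was 55 or 54.

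The spike-in libraries asked the same without a solvent or drug, over 5 kb regions on the authors' scale. The mean over the genes was 27.1 and 49.0 in the nascent libraries and 109 and 102 after 2 h, so that the nascent pair stood apart from each other more than the 2 h pair. Other coding starts rose too, from means of 26.6 and 48.0 to 92.1 and 85.6. Of the member regions, 191 of 317 were higher at 2 h and 0 lower (background 30.1% and 1.35%), among them Zfp280c (3.06), Zfp120 (3.04), Zfp945 (2.98), Zfp40 (2.89), Zfp972 (2.77) and Zfp820 (2.71). The count rests on single libraries: it was 0 without either 2 h replicate and 291 without nascent replicate 2. It was also 14 with the replicate number as a block and 0 without the filter on low values. How S2 reads entered these values is not stated, and their column sums are not those of plain RPM.

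Triptolide before the pulse lowered nascent signal at part of the family. The comparison asks whether initiation of transcription bears on accessibility right after the fork. Of 311 regions 61 fell and 0 rose (background 11.6% lower, 0.45% higher), with a median of -0.54 over the genes tested, -0.23 over all TSS regions and -0.53 over coding starts with a steady-state peak. The genes tested include some without a steady-state peak, so the last set is not matched to them. Centring left 23 lower, and limma-voom 4. Without nascent DMSO replicate 3 the count was 40, and without nascent triptolide replicate 2 it was 38.

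Zfp322a, which activates the stem cell genes Pou5f1 and Nanog, fell most. It gave 6.34, 5.05 and 6.35 RPM in DMSO and 1.04, 0 and 0.720 RPM in triptolide, with no overlap (-2.18, SE 0.30, adjusted p = 1.6e-07; limma). Zfp868 gave 5.19, 6.56 and 6.35 against 0.348, 1.81 and 1.08 RPM (-1.82, SE 0.31, adjusted p = 9.6e-06). Zfp143 gave 5.19, 8.08 and 8.73 against 1.74, 1.36 and 1.26 RPM (-1.74, SE 0.29, adjusted p = 5.0e-06). These 3 promoters, printed above, were separated from DMSO in every library and kept their call under all alternatives. Zfp142 (-1.67), Zfp763 (-1.63) and Zfp212 (-1.56) came next and lost the call with limma-voom alone. The region of Zfp142 also lies within 1000 bp of the start of Bcs1l, a mitochondrial assembly factor gene on the other strand, and the signal cannot be assigned to either.

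By function, 8 of 14 general factors fell (median -0.98, background 11.6% lower), including Zfp131 (-1.49), Zfp148 (-1.22), Zfp24 (-1.22) and Zfp219 (-1.06), while Zfp64 had 0.008 (adjusted p = 0.99). The region of Zfp131 also lies within 1000 bp of the start of the gene model Gm46390. Of the proteins with other roles 5 of 11 fell, such as Zfp706 (-1.55) and Zfp598 (-1.54). None of the 6 retroelement or imprint factors and none of the 11 developmental genes passed the test (limma; median -0.46 and -0.16). Their nascent levels were lower to begin with, at a median of 1.81 and 1.39 RPM against 4.15 RPM for the general factors, and the part of level in these counts was not tested. With S5P, 26 of 79 genes fell (median -0.69), and without it 30 of 208 (median -0.45). Over all TSS regions with S5P, 1767 of 5893 fell (median -0.67). The difference between genes with and without S5P was not tested.

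At 2 h the fall with triptolide was broad. There 182 of 311 regions were lower than in DMSO and 1 was higher (background 28.6% and 2.72%), with a median of -0.99 over the genes, against -0.29 over all TSS regions and -0.88 over coding starts with a steady-state peak. The genes again include some without a steady-state peak. Centring gave 110 lower and 5 higher, and limma-voom 51 lower and 12 higher, so the split of calls moved with the scaling.

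Zfp513 fell from 22.1, 18.3 and 16.6 RPM in DMSO to 3.17, 2.48 and 3.19 RPM (-2.34, SE 0.29, adjusted p = 8.6e-11; limma). Zfp142 fell from 19.6, 10.8 and 17.4 to 2.02, 2.48 and 2.39 RPM (-2.32, SE 0.31, adjusted p = 6.9e-10). The lowest DMSO library of each lay above all triptolide libraries. Zfp345, Zfp882, Zfp444 and Zfp672 followed with -2.07, -2.07, -2.0 and -1.99. The region of Zfp672 also lies within 1000 bp of the start of Sh3bp5l. The 1 gene that rose was Zfp532, with 3.74, 4.03 and 4.79 RPM in triptolide and 2.45, 2.88 and 0.553 RPM in DMSO (0.91, SE 0.35, adjusted p = 0.035). The groups did not overlap, but the call was lost in 7 of 16 alternatives, among them those without 2 h DMSO replicate 3 or each 2 h triptolide replicate in turn. Proteins with other roles fell at 9 of 11 promoters, general factors at 6 of 14, developmental genes at 5 of 11 and retroelement or imprint factors at 3 of 6. The background was 28.6% lower, and these lists were not tested. Zfp462 and Zfp219 gave log2 differences of -0.015 and -0.40 (adjusted p = 1.00 and 0.33). Among clustered genes 96 of 163 fell, and among solitary genes 69 of 124.

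**Figure D4:**
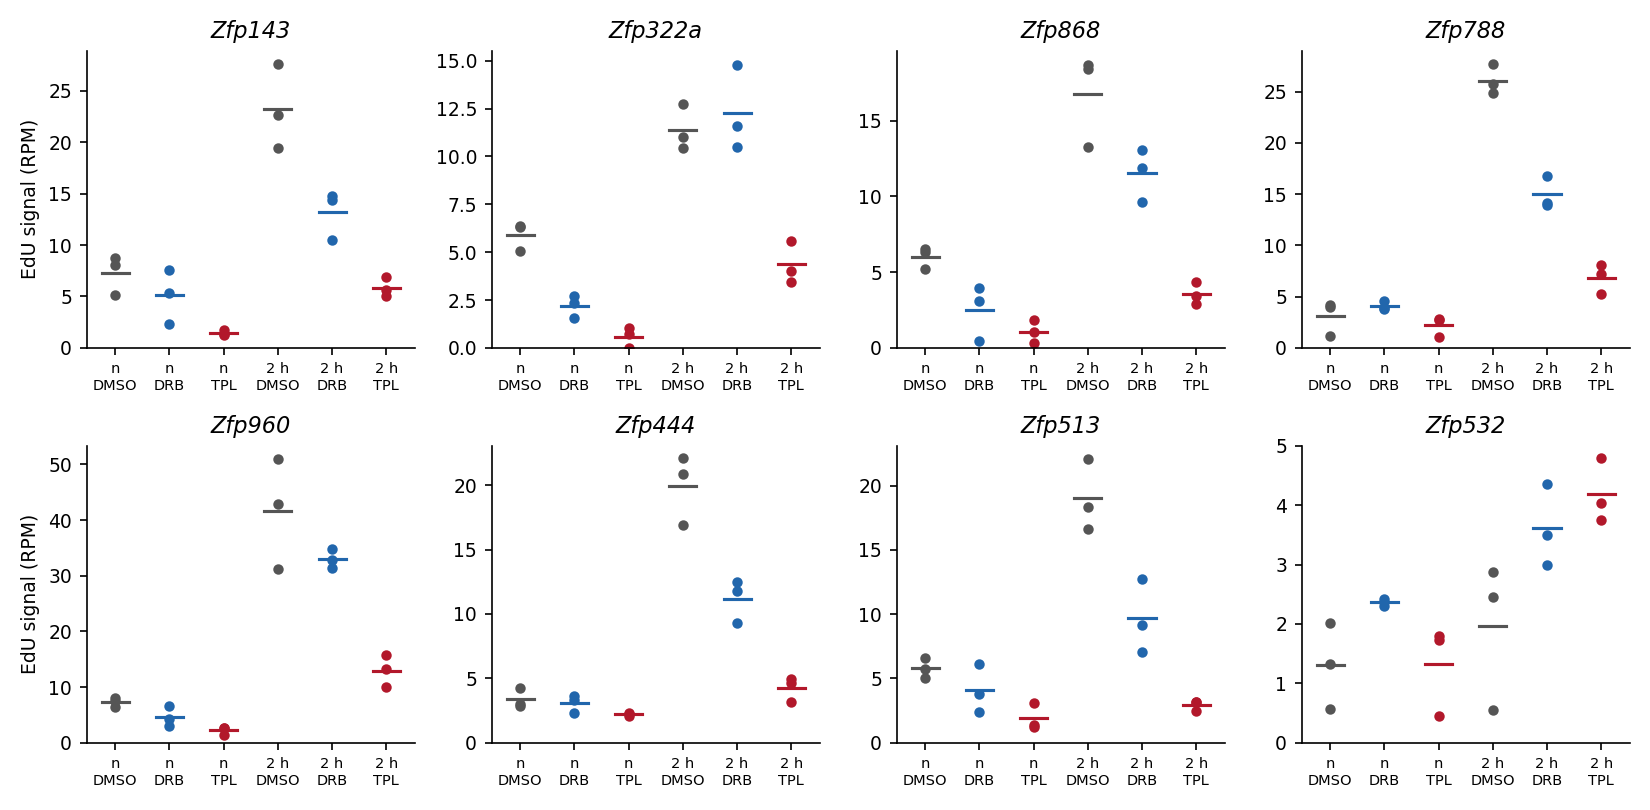
EdU signal (RPM, y axis) of 8 Zfp promoters in each library (points; lines are means of 3 libraries) for nascent (n) and 2 h chromatin after DMSO (grey), DRB (blue) or triptolide (TPL, red). At 2 h the triptolide points lie below the DMSO points in every panel but Zfp532, where they lie at 3.74 to 4.79 RPM above DMSO at 0.55 to 2.88.

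DRB gave fewer calls than triptolide. In nascent chromatin 18 of 311 regions fell and 0 rose (background 3.37% lower, 0.282% higher). Zfp607b gave 5.77, 2.02 and 4.5 RPM in DMSO and 0.473, 0 and 2.12 RPM in DRB (-1.54, SE 0.33, adjusted p = 0.0026; limma), where 1 DRB library lay above the lowest DMSO one. Its region also lies within 1000 bp of the start of Map3k10, a kinase gene on the other strand. Zfp212, Zfp667, Zfp35, Zfp69 and Zfp651 followed at -1.50, -1.41, -1.34, -1.31 and -1.31, and each of them lost its call when some single library was left out. Without nascent DMSO replicate 2 or 3 the count was 7 or 10, centring gave 5 and limma-voom 0. Zfp322a was low with DRB in nascent chromatin, at 2.36, 1.54 and 2.72 RPM (-1.12, SE 0.30, adjusted p = 0.019), and at 2 h gave 10.5, 11.6 and 14.8 RPM against 11, 10.4 and 12.7 RPM in DMSO (0.09, SE 0.30, adjusted p = 0.96). At 2 h the 1 region called was that of Zfp202, which fell from 15.3, 17.3 and 24.1 to 7.43, 5.97 and 7.54 RPM (-1.30, SE 0.30, adjusted p = 0.011; background 0.621% lower and 0.201% higher). The count moved with the settings: it was 34 with libraries scaled to windows away from peaks, 33 with only the groups compared in the fit, 14 with the mean of windows within 1 kb or a pseudocount of 2, 5 with limma-voom (3 higher, 2 lower), 2 with a mean of at least 1 RPM, and 0 with centring or a pseudocount of 0.5. The Zfp202 call was lost without 2 h DMSO replicate 2 or 3 or 2 h DRB replicate 1 or 2.

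Compared directly, triptolide was below DRB at 4 regions in nascent chromatin (background 0.577% lower and 0.0873% higher) and at 98 at 2 h (background 14.8% and 1.21%), and above it at 0. The nascent ones include Zfp418 (-1.23), Zfp143 (-1.22) and Zfp91 (-1.12), whose region also lies within 1000 bp of the start of Lpxn. At 2 h Zfp882 (-1.76) and Zfp142 (-1.59) differed most. Limma-voom gave 0 in nascent chromatin and, at 2 h, 14 lower and 3 higher. The 4 nascent calls fell to 0 without nascent DRB replicate 2 or nascent triptolide replicate 2 and to 1 without replicate 3 of either, and without 2 h DRB replicate 3 the 2 h count was 58.

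**Figure D5:**
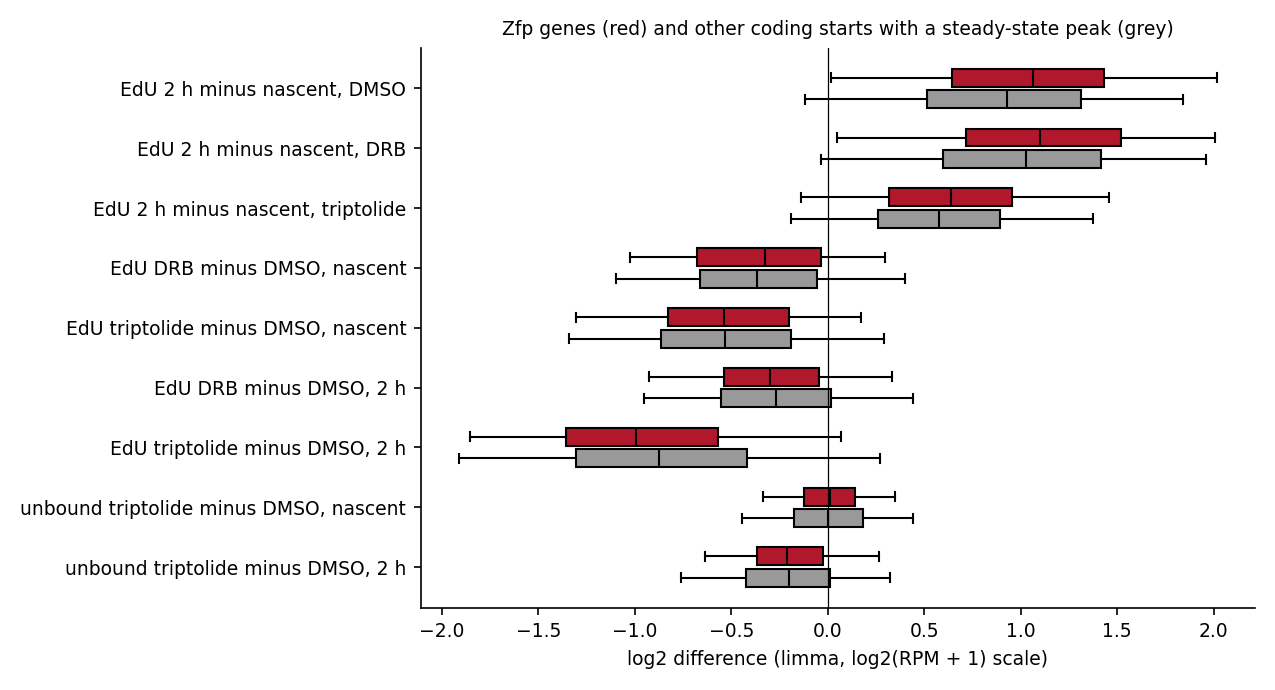
Log2 differences (x axis, limma on log2(RPM + 1)) of 9 comparisons for the Zfp genes (red) and other coding starts with a steady-state peak (grey). Boxes span the quartiles with the median as a line and whiskers reach the 5th and 95th percentiles. The red boxes include Zfp genes without a steady-state peak. The red and grey boxes overlap widely in each comparison.

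The gain from nascent to 2 h was itself smaller with triptolide than with DMSO at 2 genes (limma contrast; background 0.419% lower and 0.0302% higher). Zfp866 rose in DMSO from 2.31, 3.53 and 3.70 to 21.8, 16.5 and 16.3 RPM, and in triptolide it went from 3.13, 3.17 and 2.88 to 3.46, 4.97 and 3.72 RPM. The difference of the gains was -1.90, SE 0.42, adjusted p = 0.0069. Zfp444, from 2.09, 2.26 and 2.34 to 4.61, 4.97 and 3.19 RPM with triptolide, had -1.57, SE 0.41, adjusted p = 0.043. The median over the genes was -0.40, against -0.14 over all TSS regions. The count was 0 without 2 h DMSO replicate 1, 4 without nascent DMSO replicate 3, 2 without nascent DMSO replicate 2 or nascent triptolide replicate 3, and 1 without each other library of the 4 groups in turn. It was 25 with libraries scaled to windows away from peaks, 8 with the mean of windows within 1 kb or a pseudocount of 2, 6 with only the groups compared in the fit and 4 with a mean of at least 1 RPM. It was 1 with centring, a pseudocount of 0.5 or no filter, and 0 with limma-voom. For DRB limma called 0 regions (background 0.00671% lower and 0.0134% higher), with 18 under an unadjusted p of 0.05, and limma-voom called 0.

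The unbound fraction showed whether the drugs also moved bulk chromatin of cells treated in the same way. In nascent samples with triptolide 6 of 315 regions were lower and 3 higher (background 1.53% and 0.709%). Zfp143 was among the lower ones, with 26.2, 28.1 and 23.2 RPM in DMSO against 18.2, 19.1 and 17.6 RPM (-0.47, SE 0.12, adjusted p = 0.026), as were Zfp518a (-0.71), Zfp513 (-0.57) and Zfp202 (-0.50). Zfp770, Zfp365 and Zfp119a were higher (0.61, 0.58 and 0.54). At 2 h, 57 were lower and 0 higher (background 12.2% and 2.26%), led by Zfp513 (-1.14), Zfp143 (-0.99), the shared window of Zfp646 and Zfp668 (-0.90), Zfp35 (-0.87) and Zfp202 (-0.74). The 57 became 35 without 2 h DMSO replicate 1 and 31 without 2 h triptolide replicate 2, limma-voom gave 32, and scaling to windows away from peaks gave 144. The 9 nascent calls became 4 without DMSO replicate 1 or 2, and 1 and 0 without triptolide replicates 2 and 3.

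With DRB 1 region fell and 1 rose in the nascent unbound libraries (Zfp202 -0.69 and Zfp65 0.66; background 0.637% and 0.267%), and 3 fell and 3 rose at 2 h (background 0.713% and 0.769%). The fallers at 2 h were Zfp202 (-0.81), Zfp474 (-0.65) and Zfp513 (-0.58), and the risers Zfp770 (0.77), Zfp874a (0.72) and Zfp365 (0.66). The 2 nascent calls became 4 without DMSO replicate 1 or 2 and 1 without each DRB replicate in turn, and the 6 at 2 h became 3 without DMSO replicate 2. Limma-voom gave 7 and 13. Between the nascent and the 2 h time, limma called no member region in unbound DMSO chromatin (background 0%), 27 had an unadjusted p under 0.05, and limma-voom called 0.

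Set against the unbound fraction in the same model, the fall with triptolide in nascent chromatin was larger in the EdU fraction at 43 of 315 regions and smaller at 0 (background 7.09% and 0.331%). Zfp322a again led, at -2.46, SE 0.31, adjusted p = 3.0e-06. Its unbound libraries gave 11.4, 14.9 and 10.6 RPM in DMSO and 14.2, 16.8 and 14.2 RPM in triptolide, so that the unbound groups overlapped where the EdU groups did not. With DRB the difference was called at 3 regions (Zfp607b, Zfp219 and Zfp322a; background 0.397% and 0.0459%). Centring left 6 regions for triptolide and 0 for DRB, and limma-voom 1 and 0. The fit treats the 36 libraries as independent. With each EdU library set against the unbound library of the same time, drug and number, which the sources used here do not say came from the same cells, the counts were 43 and 3. The 43 became 26 and 24 without unbound DMSO replicate 2 or 3 and 19 without unbound triptolide replicate 1. The 3 of DRB became 0 without each unbound DMSO or DRB replicate in turn, and 5, 6 and 19 without EdU DRB replicates 1, 2 and 3, and 5 without EdU DMSO replicate 3.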

How the data were processed

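Repli-ATAC-seq and S5P ChIP-seq were made from mouse embryonic stem cells. Per the submitters' processing notes, Trim Galore 0.4.2, Bowtie2 2.2.6.2 and the mm10 build were used. How duplicates and reads with several matches were handled, and how peaks were called, is not stated. The inhibitor table and the spike-in table were deposited by the authors as log2(RPM + 1), by the names given to them, in 1 kb windows every 500 bp and in 5 kb regions around TSS. Peak lists were deposited by the authors as positions, 1 combined list per group. Over non-overlapping regions the spike-in values sum to 58.2% to 182% of the total that RPM would give, so they are not plain RPM.

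Members, function lists and tests were chosen with earlier results of these data known. Each region took the value of the nearest 1 kb window, and each gene start came from RefSeq (GRCm38.p6, the mm10 assembly). Limma 3.58.1 (R 4.3.3, trend) was fitted on the deposited log2 values of all TSS regions with a value above 0 in 3 or more libraries (spike-in table: 2 or more), with Benjamini-Hochberg adjustment over all of them and a threshold of 0.05. Of 298 member genes 287 entered the EdU fit. All 18 EdU libraries shared 1 fit, as did all 18 unbound libraries, and all 36 entered the comparison of fractions. Log2 differences are on the log2(RPM + 1) scale and understate changes at low levels. Whole reads were recovered from the RPM steps for limma-voom with TMM, an alternative. Named genes are the members of the function lists, the 6 called genes with the largest difference in each direction, the 6 highest nascent levels, and genes at 0. The unbound comparison over time, the sets with a steady-state or S5P peak, the runs, the shared words, the pairing of fractions and the analysis with 1 region per gene were added after values had been seen. Intervals and limits for counts of 0 cover counting error only. The enhancer table was not used here.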

Additional observations from a re-analysis of the deposited data

Results flagged for a closer look

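These results are differences between effects that passed a direct test of the difference (limma, adjusted over all TSS regions). The gain from nascent to 2 h was smaller with triptolide than with DMSO at 2 member regions (background 0.419% lower and 0.0302% higher). These were the regions of Zfp866 (-1.90) and Zfp444 (-1.57). The effect of triptolide in nascent chromatin differed between the EdU and the unbound fraction at 43 member regions (background 7.09% lower and 0.331% higher). That of DRB differed at 3 (background 0.397% and 0.0459%). For triptolide the largest were Zfp322a (-2.46), Zfp131 (-1.73), Zfp868 (-1.69), Zfp763 (-1.69), Zfp882 (-1.58) and Zfp651 (-1.54). For DRB they were Zfp607b (-1.62), Zfp219 (-1.37) and Zfp322a (-1.36). Each EdU value was the more negative one. Centring and limma-voom lowered both the 43 and the 3, as given above. In the difference of gains, Zfp444 lost its call in 14 of 22 alternatives and Zfp866 in 3 of 22. In the comparison of fractions with DRB, Zfp607b lost its call in 17 of 23 alternatives, and Zfp219 and Zfp322a in 10 of 23 each, among them those without each unbound nascent DMSO or DRB replicate in turn. With triptolide, Zfp322a lost its call in 0 of 23, Zfp131, Zfp868 and Zfp882 in 1 (limma-voom), and Zfp763 and Zfp651 in 2 (limma-voom and centring).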

How the results depend on the processing

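Of 225 counts under alternatives other than leaving out a library, 161 stayed within 1.5 times of the count in the report and 64 did not. Directions were compared for the 3 called genes with the largest difference in each direction of the EdU comparisons, and none of these turned. Named genes without a call were not compared in this way. Counts are member regions called, and the cause of each shift was not tested. In the EdU fraction, centring on the median region gave 117 for the DMSO gain, 29 for the triptolide gain, 115 for triptolide at 2 h, 23 for triptolide and 5 for DRB in nascent chromatin, 0 for DRB at 2 h, 39 and 0 for triptolide minus DRB (2 h, nascent), 1 for the triptolide difference of gains, and 6 and 0 for the EdU minus unbound effects of triptolide and DRB. Limma-voom gave 51, 38 and 16 for the gains in DMSO, DRB and triptolide, 63 and 4 for triptolide at 2 h and nascent, 5 and 0 for DRB, 17 and 0 for triptolide minus DRB, 0 for the difference of gains, 1 and 0 for EdU minus unbound, and in unbound chromatin 13 and 7 for DRB (2 h, nascent) and 32 for triptolide at 2 h. Scaling to windows away from peaks gave 173 for the triptolide gain, 34 for DRB at 2 h, 0 for triptolide minus DRB in nascent chromatin, 25 for the difference of gains, 20 and 0 for EdU minus unbound and 144 for unbound triptolide at 2 h. Fitting only the groups compared gave 33 and 3 for DRB (2 h, nascent), 0 for triptolide minus DRB nascent, 6 for the difference of gains, 27 and 0 for EdU minus unbound and 12 for unbound DRB at 2 h. For DRB at 2 h a mean of at least 1 gave 2, the mean of windows within 1 kb 14, and pseudocounts of 0.5 and 2 gave 0 and 14; for the difference of gains these gave 4, 8, 1 and 8. Triptolide minus DRB in nascent chromatin gave 7 and 0 with the pseudocounts. A mean of at least 1 gave 6 for EdU minus unbound with DRB and 10 and 7 for unbound DRB (2 h, nascent), and the windows' mean 10 and 5. Without a filter the counts were 7 for DRB nascent, 0 for triptolide minus DRB nascent, 1 for the difference of gains, 0 for the spike-in libraries, and 1 and 4 for unbound DRB and triptolide, nascent. S5P peaks that cover the midpoint numbered 55.

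Leaving out single libraries gave 162 to 184 for the DMSO gain, 188 to 207 for DRB and 54 to 70 for triptolide. It gave 38 to 53 and 149 to 169 for triptolide (nascent, 2 h), 7 to 21 and 0 to 1 for DRB, 0 to 5 and 58 to 77 for triptolide minus DRB, 0 to 4 and 0 to 0 for the differences of gains with triptolide and DRB, 19 to 44 and 0 to 19 for EdU minus unbound, 0 to 291 for the spike-in libraries, and in unbound chromatin 0 to 8 and 31 to 65 for triptolide, 1 to 4 and 3 to 6 for DRB and 0 for DMSO over time.

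The correlation of same-numbered deviations ran from -0.023 to 0.054 in EdU libraries (0 of 45 pairs over 0.1) and from -0.019 to 0.166 in unbound libraries (12 of 45 over 0.1, median 0.062 against -0.031 for other numbers). Between an EdU and an unbound library of the same time and drug it was over 0.1 in 3 of 18 pairs (median 0.032 against -0.019). The condition for pairing, every pair over 0.1, was not met. With each EdU library set against its same-numbered unbound library, a replicate block across fractions added after values had been seen, the EdU minus unbound counts were 43 and 3. With the replicate number as a block the spike-in count was 14 and unbound DRB in nascent samples 6, and the DMSO gain was 202.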
